A study of Rattus norvegicus with 13 samples.

Results

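The genes described here are 42 members of cytokine and NF-kB inflammatory signalling in the rat hypothalamus. They were taken from a list of gene symbols, and each was read from an array row annotated with exactly 1 symbol (the row with the highest mean where a gene had several). All 42 were found among the 22093 genes on the array, and 34 of them had enough signal to be tested. The study fed male Sprague-Dawley rats, received at 6 to 7 weeks of age, 1 of 3 diets for 2 months and asked what plant oils rich in omega-3 or omega-6 essential fats do to hypothalamic expression. The low-fat control diet (LF-CD) supplied 16% of energy as soybean oil and had 4 arrays. HF-FD, with 4 arrays, supplied 35% of energy as flaxseed oil, which is rich in omega-3 fat, and HF-SD, with 5 arrays, supplied 35% as safflower oil, which is rich in omega-6 fat. The rats were 14 to 15 weeks old at collection, and the labels name no transgene and no drug. Each high-fat diet differs from LF-CD in the amount of fat and in its source at once, while HF-FD and HF-SD differ in source alone as far as the labels say. No low-fat flaxseed or low-fat safflower group was analysed here. The labels do not say whether 1 array held the RNA of 1 rat, so p-values measure the spread between arrays, which may be partly technical.

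NF-kB is a family of dimeric transcription factors held in the cytoplasm by inhibitor proteins such as IkBa, the product of Nfkbia. Interleukin 1 and Toll-like receptors act through the adaptor MyD88, IRAK kinases and the ubiquitin ligase TRAF6, while TNF receptors use their own adaptors, and these routes meet at the IkB kinase complex (Chuk, Ikbkb and Ikbkg), which marks the inhibitor for destruction. Freed NF-kB switches on cytokines, chemokines, adhesion molecules and its own inhibitors Nfkbia and Tnfaip3. In rodents fed saturated fat, hypothalamic cytokines and NF-kB signalling have been widely studied as part of the response of microglia and astrocytes to diet.

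The sequence near the start of these genes was searched for short letter patterns, among them a loose form of the NF-kB site that leaves its middle bases open. Promoter windows from RefSeq (assembly GRCr8), running from 250 bases before to 50 bases after the gene start, were available for 34 of the 42 members. The kB motif, searched as GGGANNNNCC on both strands, occurred in 13 of them (38.2%), against 19.3% of all 33469 windows of the same length. An interferon-stimulated response element, searched as GAAANNGAAA, was in 6 (17.6%, against 3.92% of all windows). The AP-1 motif TGANTCA was also in 6 (17.6%, against 7.33%). For each member only the first listed window was used, while all windows entered the background. Each window was counted once per motif, and no matches of different motifs overlapped in the members' windows. A match of letters describes the window only and was not tested as a binding site. The windows below are those of Nfkbia (chr6:78597023-78597322, minus strand) and Nfkb2 (chr1:255108124-255108423, plus strand), which are feedback targets of the pathway, of Il1rap (chr11:87704293-87704592, minus strand) and Tlr3 (chr16:53554666-53554965, plus strand), receptor genes that were higher with safflower oil under both scalings, and of Il1b (chr3:137036532-137036831, minus strand), whose deposited signal was lower. They are written 5′ to 3′ in the gene's direction, and capitals mark matches to any of the 3 motifs.
Nfkbia: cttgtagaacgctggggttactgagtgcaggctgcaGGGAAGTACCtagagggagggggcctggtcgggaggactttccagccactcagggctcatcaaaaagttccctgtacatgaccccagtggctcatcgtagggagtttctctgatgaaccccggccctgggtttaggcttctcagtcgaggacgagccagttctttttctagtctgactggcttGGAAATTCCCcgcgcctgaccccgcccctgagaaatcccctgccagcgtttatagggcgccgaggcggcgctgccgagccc
Nfkb2: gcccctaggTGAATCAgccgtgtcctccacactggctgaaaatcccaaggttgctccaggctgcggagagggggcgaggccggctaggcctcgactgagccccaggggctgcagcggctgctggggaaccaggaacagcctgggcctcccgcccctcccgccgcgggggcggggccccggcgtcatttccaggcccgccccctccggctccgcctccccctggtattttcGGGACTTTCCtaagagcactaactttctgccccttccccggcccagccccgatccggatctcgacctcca
Il1rap: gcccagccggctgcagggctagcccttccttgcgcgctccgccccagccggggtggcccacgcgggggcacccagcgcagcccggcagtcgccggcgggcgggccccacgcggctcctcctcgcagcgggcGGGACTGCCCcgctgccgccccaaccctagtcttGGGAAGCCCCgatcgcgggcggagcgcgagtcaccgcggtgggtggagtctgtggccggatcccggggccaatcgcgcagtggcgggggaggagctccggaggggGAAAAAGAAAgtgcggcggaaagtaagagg
Tlr3: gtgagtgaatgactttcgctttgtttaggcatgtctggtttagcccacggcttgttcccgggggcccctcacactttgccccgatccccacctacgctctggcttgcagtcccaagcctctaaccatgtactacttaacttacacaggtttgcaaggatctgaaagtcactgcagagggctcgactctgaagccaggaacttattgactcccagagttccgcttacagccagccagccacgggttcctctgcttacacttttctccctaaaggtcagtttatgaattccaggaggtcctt
Il1b: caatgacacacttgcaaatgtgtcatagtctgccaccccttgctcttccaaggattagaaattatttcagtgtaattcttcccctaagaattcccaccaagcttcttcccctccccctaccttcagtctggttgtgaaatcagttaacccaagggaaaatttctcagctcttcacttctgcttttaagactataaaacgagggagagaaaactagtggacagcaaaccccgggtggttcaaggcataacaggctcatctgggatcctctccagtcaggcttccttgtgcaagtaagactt
Nfkbia held kB matches 214 and 31 bases before the start, and Nfkb2 held one 20 bases before it. Nfkb2 also had an AP-1 match 241 bases before its start. Il1rap held kB matches 119 and 85 bases before the start and the interferon-type match 20 bases after it. The windows of Tlr3 and Il1b held none of the 3 motifs in this stretch.

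Values are RMA signals on the log2 scale, so a difference of 1 is a doubling. The arrays differ in the spread of their values in a way that runs with diet, and this touches most of the results. Over the tested genes, the interquartile range of an array was 1.33 to 1.39 on the LF-CD arrays, 1.39 to 1.52 on the HF-FD arrays and 1.51 to 1.68 on the HF-SD arrays, while the median of all rows went the other way (6.67 to 6.74, 6.53 to 6.66 and 6.42 to 6.59). Results are therefore set on the deposited values beside those after quantile normalization, which gives all arrays the same distribution. Among all tested genes, those above the middle signal of 8.10 had a median log2 change of 0.18 with safflower oil on deposited values and 0.05 after quantile normalization, and those below it had -0.09 and 0.02. The 73 olfactory receptor genes, most of them near background in this tissue, had a median change of -0.22 and -0.07. All 15 hypothalamic markers listed were bright enough to be tested, among them the neuropeptide genes Oxt and Pmch with mean signals of 12.39 and 11.73. Whether batch, hybridisation or RNA quality moved with diet was not tested, because the sources used here give no such value. In bulk tissue, fewer cells of a type and less RNA per cell cannot be told apart.

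Compared with LF-CD, the safflower diet was accompanied by higher signals of some receptor and signal-transducing genes of the pathway and, on the deposited scale, by lower signals of several cytokines, chemokines and other inducible products. Among all tested genes on that scale, 22.9% were higher and 16.9% lower. Of those above the middle signal of 8.10, 37% were higher, and of those below it 31.3% were lower. Tlr3, Il1rap, Traf6 and Hmgb1 were higher under both scalings, by 1.32-, 1.23-, 1.28- and 1.56-fold on deposited values (LF-CD n = 4, HF-SD n = 5). Il1b, Ccl5, Ccl3, Lcn2, Tnf and Nos2 were 1.22- to 1.26-fold lower on deposited values, and none of these passed the test after quantile normalization. The inhibitor Nfkbia and the subunits Rela and Nfkb1 did not pass the test in either of these scalings.

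In numbers, 6 of the 34 tested members were higher and 10 were lower on deposited values (limma, Benjamini-Hochberg adjusted p below 0.05 over 16033 genes). The background was 22.9% of all tested genes higher and 16.9% lower, so the share of members called was below it for higher and above it for lower genes. After quantile normalization 5 members were higher and 0 lower in limma, against 10.1% and 4.37% of all tested genes. At an unadjusted p below 0.05 in either direction there were then 10 of the 34 tested members, beside 5140 of the 16033 tested genes, a similar share. Cyclic loess gave 5 higher and 1 lower (Relb). When each array was centred on its median, 18 were higher and 0 lower. That step lifts the median change over all tested genes to 0.28 from 0.07. Of the 16033 tested genes, 3099 passed in either direction with loess and 9620 with median centring. The 4 members higher in both the deposited and the quantile-normalized values compare with 7.14% of all tested genes, and 0 members were lower in both, against 3.84%. On deposited values the safflower and low-fat arrays did not overlap for 6 members that lay above and 7 that lay below, against 13.5% and 12.5% of all tested genes. After quantile normalization 5 members lay above and 1, Il1b, below, beside 1608 and 838 of the 16033 tested genes. The median log2 change of the tested members was 0.03 on deposited values and 0.07 after quantile normalization, beside 0.07 and 0.04 for all tested genes.

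**Figure D1:**
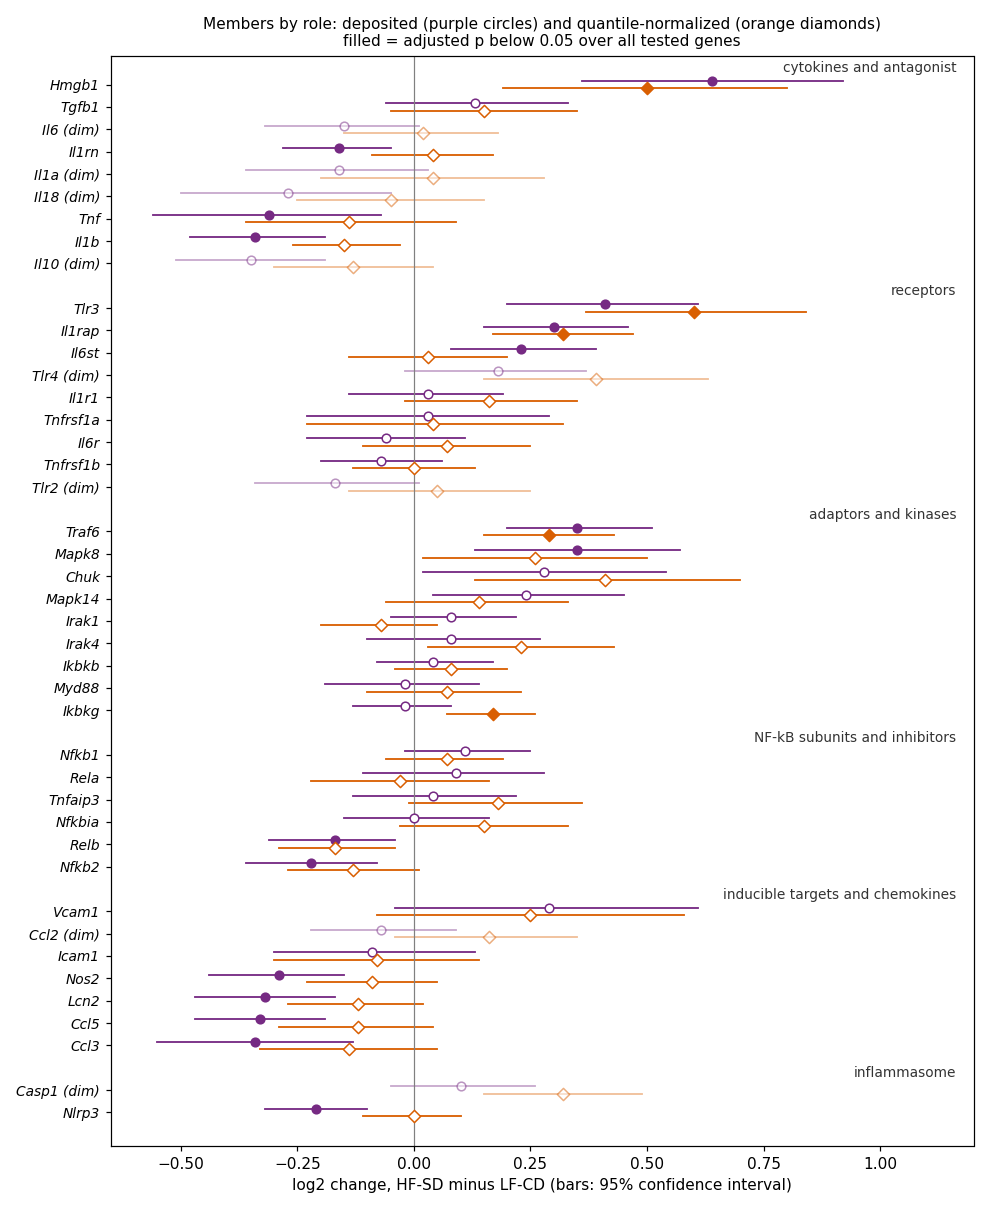
Log2 change of each of the 42 members in HF-SD (n = 5) minus LF-CD (n = 4), grouped by role, on deposited and on quantile-normalized values. Points are fitted changes, lines are 95% confidence intervals, filled points have an adjusted p below 0.05, and dim marks members below the limit for testing. All filled points among receptors and transducers lie above 0, while the lower cytokines and inducible targets move towards 0 after quantile normalization.

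Of 9 receptor genes, 7 were tested, and 3 were higher and 0 lower on deposited values, where 22.9% and 16.9% of all tested genes were. Tlr3, an endosomal receptor for double-stranded RNA, read 6.45, 6.27, 6.60 and 6.61 on the 4 LF-CD arrays, 6.60, 6.70, 6.46 and 6.81 on the 4 HF-FD arrays and 7.11, 6.77, 7.02, 6.77 and 6.77 on the 5 HF-SD arrays. Every safflower array lay above every low-fat array, and the flaxseed arrays overlapped both groups. The log2 change was 0.41 (SE 0.10, adjusted p = 0.00725), and after quantile normalization it was 0.60 (SE 0.11, adjusted p = 0.00946). Its deposited mean over the arrays, 6.69, lies close to the limit for testing.

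Il1rap encodes the accessory chain without which the interleukin 1 receptor does not signal. It read 8.0, 7.83, 7.79 and 7.83 with LF-CD, 7.82, 7.95, 7.83 and 8.01 with HF-FD and 8.17, 8.01, 8.16, 8.14 and 8.36 with HF-SD. The safflower arrays again lay above all low-fat arrays, the closest pair being 8.0 and 8.01. The change was 0.30 (SE 0.07, adjusted p = 0.00755) on deposited and 0.32 (SE 0.07, adjusted p = 0.0138) on quantile-normalized values, with 0.33 after loess and 0.52 after median centring. Il1r1, the ligand-binding chain of the same receptor, changed by 0.03 (95% interval -0.14 to 0.19) on deposited values and by 0.16 (-0.02 to 0.35) after quantile normalization, and passed in neither.

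Il6st, the gp130 chain shared by receptors of the interleukin 6 family, read 9.69, 9.63, 9.56 and 9.53 with LF-CD, 9.85, 9.76, 9.53 and 9.67 with HF-FD and 9.97, 9.77, 9.92, 9.72 and 9.81 with HF-SD. The safflower arrays did not overlap the low-fat arrays, and the change was 0.23 (SE 0.07, adjusted p = 0.0219). After quantile normalization it was 0.03 (SE 0.08, adjusted p = 0.817), and without LF-CD replicate 4 or HF-SD replicate 1 the deposited change did not pass either (adjusted p up to 0.057). The specific chain Il6r changed by -0.06 and 0.07 in the 2 scalings and the TNF receptors Tnfrsf1a and Tnfrsf1b by -0.07 to 0.04, with no member of these past the threshold.

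Tlr4, the receptor for lipopolysaccharide and the Toll-like receptor most discussed for dietary fat, was too dim to be tested in the main comparison (mean 6.55 against a limit of 6.58). It read 6.40, 6.43, 6.39 and 6.43 with LF-CD, 6.78, 6.70, 6.50 and 6.64 with HF-FD and 6.78, 6.30, 6.56, 6.50 and 6.81 with HF-SD. On these deposited values all flaxseed arrays lay above the low-fat arrays, whereas the safflower arrays overlapped them. After quantile normalization the flaxseed arrays (6.42 to 6.82) and the safflower arrays (6.39 to 6.95) all lay above the low-fat arrays (6.24 to 6.33). With all genes tested, the safflower change was 0.18 (adjusted p = 0.121) on deposited values and 0.39 (adjusted p = 0.0409) after quantile normalization. Tlr2, a receptor for bacterial lipoproteins, was also dim, with changes of -0.17 and 0.05.

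**Figure D2:**
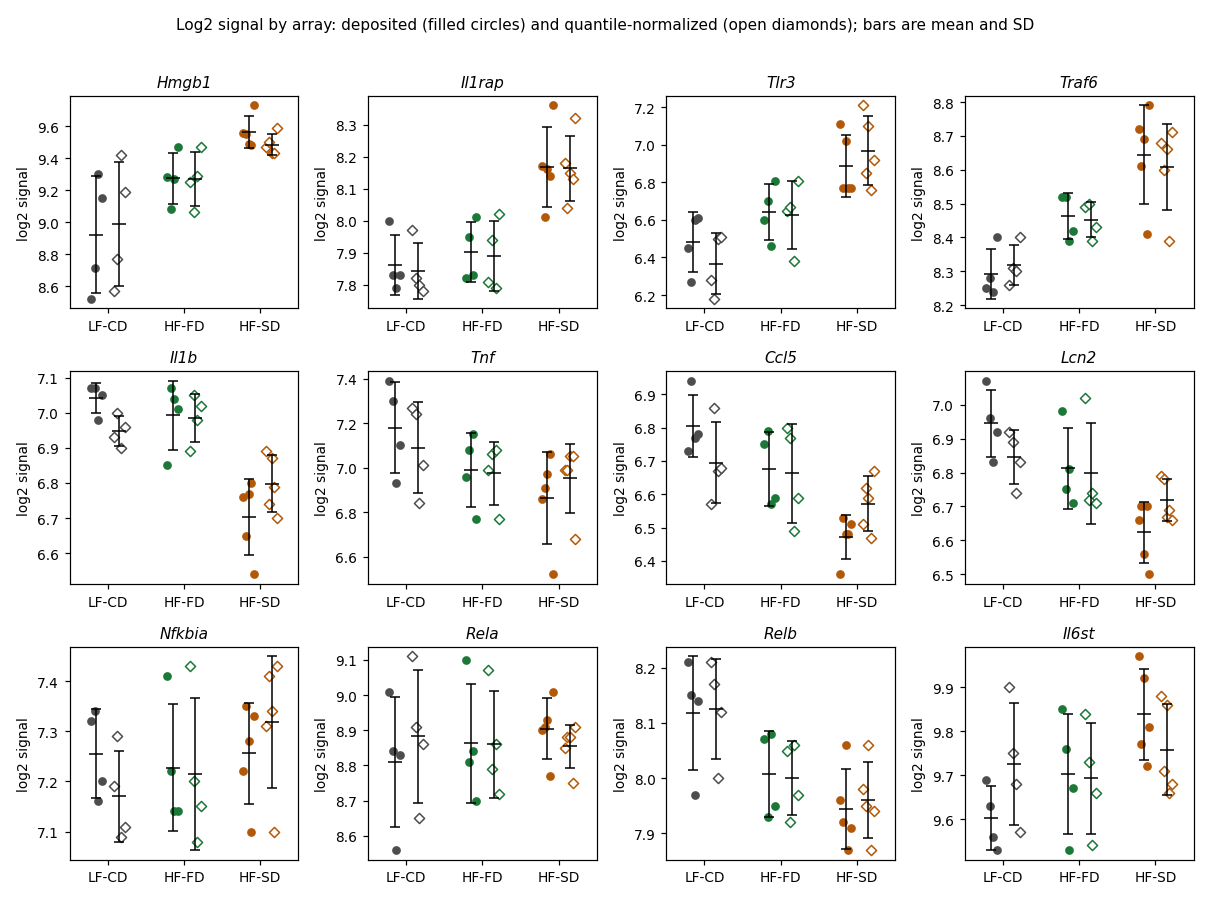
Log2 signal on each of the 13 arrays for members the results turn on, by diet. Filled circles are deposited values, open diamonds quantile-normalized values, and bars give the mean and SD of the group. For Tlr3, Il1rap and Hmgb1 the filled circles of HF-SD all lie above those of LF-CD, for Il1b and Ccl5 they all lie below, and for Nfkbia the 3 groups overlap.

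Among the 9 adaptors and kinases, all tested, 2 were higher and 0 lower on deposited values, a share of higher genes close to the 22.9% of all tested genes. Traf6, the ubiquitin ligase that carries signals from interleukin 1 and Toll-like receptors to the IkB kinases, read 8.25, 8.28, 8.24 and 8.40 with LF-CD, 8.52, 8.52, 8.39 and 8.42 with HF-FD and 8.72, 8.61, 8.69, 8.41 and 8.79 with HF-SD. The lowest safflower array (8.41) was just above the highest low-fat array (8.40). Its change was 0.35 (SE 0.07, adjusted p = 0.0047), and 0.29 after quantile normalization (SE 0.07, adjusted p = 0.0148), where the lowest safflower array fell within the low-fat range. Mapk8, the stress kinase JNK1, read 8.29, 8.68, 8.68 and 8.67 with LF-CD, 8.56, 8.84, 8.82 and 8.88 with HF-FD and 8.83, 8.96, 8.71, 9.17 and 8.99 with HF-SD. Its change of 0.35 (SE 0.10, adjusted p = 0.0177) was 0.26 after quantile normalization (adjusted p = 0.131). Without LF-CD replicate 1, which read far below the other low-fat arrays, the deposited change was no longer past the threshold (adjusted p = 0.0616).

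The IkB kinase complex gave a mixed picture. Ikbkg, its regulatory subunit NEMO, read 6.90, 6.88, 6.88 and 6.91 with LF-CD, 6.80, 6.94, 6.88 and 6.88 with HF-FD and 6.84, 6.85, 6.85, 6.95 and 6.88 with HF-SD. These deposited values overlapped throughout (change -0.02, adjusted p = 0.735), yet after quantile normalization every safflower array (6.93 to 7.02) was above every low-fat array (6.76 to 6.82) and the change was 0.17 (SE 0.04, adjusted p = 0.025). That call passed in 8 of 13 fits without 1 array and failed without LF-CD replicate 1 or 2 or HF-SD replicate 1, 3 or 5 (adjusted p up to 0.0657). The direction of Ikbkg depends on the scaling, with 0.18 after loess and 0.19 after median centring. Ikbkb, the main catalytic subunit of the canonical route, read 7.86, 7.96, 7.84 and 7.93 with LF-CD, 8.12, 8.01, 7.92 and 7.86 with HF-FD and 7.93, 7.95, 7.90, 7.97 and 7.96 with HF-SD. Its groups overlapped and the change was 0.04 (95% interval -0.08 to 0.17), and 0.08 after quantile normalization. Chuk, the other catalytic subunit, ranged from 6.86 to 7.50 with LF-CD and from 7.38 to 7.68 with HF-SD, with changes of 0.28 (adjusted p = 0.0778) and 0.41 (adjusted p = 0.0532) in the 2 scalings.

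Myd88, the adaptor of nearly all Toll-like receptors but not of Tlr3, read 7.78, 7.69, 7.41 and 7.60 with LF-CD, 7.80, 7.54, 7.60 and 7.57 with HF-FD and 7.63, 7.60, 7.67, 7.53 and 7.56 with HF-SD. The groups overlapped and the change was -0.02 (95% interval -0.19 to 0.14), and 0.07 after quantile normalization. The kinases Irak1 and Irak4, which act directly after Myd88, both changed by 0.08 on deposited values (adjusted p = 0.293 and 0.463). After quantile normalization their changes were -0.07 and 0.23, neither past the threshold. Mapk14, the p38 stress kinase, changed by 0.24 (95% interval 0.04 to 0.45, adjusted p = 0.0562) and by 0.14 after quantile normalization (adjusted p = 0.332).

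For the NF-kB subunits and inhibitors, 6 genes were tested, and 0 were higher and 2 lower on deposited values, beside 22.9% and 16.9% of all tested genes. Nfkbia, the inhibitor that NF-kB induces most directly, read 7.32, 7.34, 7.16 and 7.20 with LF-CD, 7.41, 7.22, 7.14 and 7.14 with HF-FD and 7.22, 7.35, 7.28, 7.10 and 7.33 with HF-SD. The 3 groups overlapped, and the safflower change was 0.00 (95% interval -0.15 to 0.16) on deposited values and 0.15 (-0.03 to 0.33) after quantile normalization. Tnfaip3, the A20 enzyme that ends NF-kB signalling, changed by 0.04 (-0.13 to 0.22) and 0.18 (-0.01 to 0.36).

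Rela, the p65 subunit, read 9.01, 8.84, 8.56 and 8.83 with LF-CD, 9.10, 8.81, 8.84 and 8.70 with HF-FD and 8.90, 8.91, 8.93, 8.77 and 9.01 with HF-SD. It changed by 0.09 (95% interval -0.11 to 0.28) and, after quantile normalization, by -0.03. Nfkb1, the precursor of p50, read 8.37, 8.30, 8.27 and 8.29 with LF-CD, 8.59, 8.39, 8.30 and 8.31 with HF-FD and 8.49, 8.42, 8.44, 8.33 and 8.42 with HF-SD. Both genes had overlapping groups, and the change of Nfkb1 was 0.11 (-0.02 to 0.25). Neither passed on deposited, quantile or loess values. With median centring, which moves all genes upward, they passed at 0.30 (Rela, adjusted p = 0.0237) and 0.33 (Nfkb1, adjusted p = 0.00498).

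Nfkb2 and Relb, the pair of the non-canonical route, were lower on deposited values. Nfkb2 read 7.90, 7.71, 7.55 and 7.63 with LF-CD, 7.62, 7.57, 7.62 and 7.48 with HF-FD and 7.51, 7.47, 7.51, 7.44 and 7.48 with HF-SD. The safflower arrays lay below all low-fat arrays (change -0.22, SE 0.07, adjusted p = 0.0205), but the change was -0.13 after quantile normalization (adjusted p = 0.194) and lost the threshold on deposited values without LF-CD replicate 1 (adjusted p = 0.0618). Relb read 8.21, 8.15, 7.97 and 8.14 with LF-CD, 8.07, 7.93, 8.08 and 7.95 with HF-FD and 7.96, 7.92, 8.06, 7.87 and 7.91 with HF-SD. Its change hardly moved between deposited (-0.17, adjusted p = 0.0408), quantile (-0.17, adjusted p = 0.0708) and loess values (-0.15, adjusted p = 0.0301), but turned to 0.04 with median centring. Relb passed in 6 of the 13 fits that left out 1 array.

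Of 9 cytokine, antagonist and alarmin genes, 5 were tested, and 1 was higher and 3 lower on deposited values, beside 22.9% and 16.9% of all tested genes. Hmgb1, a chromatin protein that acts as an alarm signal once released from cells, read 8.52, 8.71, 9.30 and 9.15 with LF-CD, 9.28, 9.08, 9.27 and 9.47 with HF-FD and 9.56, 9.55, 9.49, 9.48 and 9.73 with HF-SD. The safflower arrays lay above all others, and the low-fat arrays were the most scattered of any group of this gene (SD 0.36, against 0.16 and 0.10). The change was 0.64 (SE 0.13, adjusted p = 0.00457), and 0.50 after quantile normalization (SE 0.14, adjusted p = 0.0334). With quantile-normalized values it passed in 7 of 13 fits without 1 array, the failures being those without LF-CD replicate 1 or 2 or HF-SD replicate 1, 2, 3 or 5 (adjusted p up to 0.095). The array holds 3 rows for Hmgb1, and they disagree: the others changed by 0.55 and, in the dimmest (mean 8.38), by 0.13. Hmgb1 has processed pseudogene copies in mammalian genomes, and how far these rows can be told apart was not tested.

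Il1b, the cytokine interleukin 1 beta, read 7.07, 7.07, 6.98 and 7.05 with LF-CD, 6.85, 7.07, 7.04 and 7.01 with HF-FD and 6.76, 6.65, 6.77, 6.80 and 6.54 with HF-SD. All safflower arrays lay below all arrays of both other diets. The change was -0.34 (SE 0.07, adjusted p = 0.00416) on deposited values and -0.15 (SE 0.06, adjusted p = 0.0881) after quantile normalization, where the safflower arrays (6.70 to 6.89) still lay below the low-fat arrays (6.90 to 7.00). It passed on deposited values in all 13 fits without 1 array and on quantile-normalized values in none.

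Tnf read 7.39, 7.30, 6.93 and 7.10 with LF-CD, 6.96, 7.08, 7.15 and 6.77 with HF-FD and 6.86, 6.91, 6.97, 7.06 and 6.52 with HF-SD. Its groups overlapped. The change of -0.31 (SE 0.12, adjusted p = 0.0438) was -0.14 after quantile normalization (adjusted p = 0.395), and it passed in only 5 of 13 fits that left out an array (adjusted p up to 0.135). The second Tnf row, with a mean of 6.93, changed by -0.23 on deposited and -0.05 on quantile-normalized values. Il1rn, the interleukin 1 receptor antagonist, read 6.86, 6.84, 6.69 and 6.73 with LF-CD, 6.58, 6.60, 6.61 and 6.65 with HF-FD and 6.62, 6.64, 6.68, 6.54 and 6.59 with HF-SD. Both high-fat groups lay below LF-CD on deposited values (safflower change -0.16, adjusted p = 0.0268), but the safflower change turned to 0.04 with quantile, 0.06 with loess and 0.05 with median-centred values. Tgfb1, an anti-inflammatory cytokine in many settings, changed by 0.13 and 0.15 and passed in neither scaling.

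The remaining cytokines were below the limit for testing. Il6 read 4.39, 4.40, 4.23 and 4.59 with LF-CD, 4.22, 4.42, 4.32 and 4.23 with HF-FD and 4.18, 4.23, 4.25, 4.17 and 4.41 with HF-SD. These lie below the olfactory receptor medians of the same diet's arrays, which run from 4.45 to 4.95 over the 3 diets. Il1a had a mean of 4.92 and a change of -0.16 on deposited and 0.04 on quantile-normalized values. Il10, an anti-inflammatory cytokine, read 6.67, 6.63, 6.34 and 6.53 with LF-CD, 6.17, 6.17, 6.30 and 6.31 with HF-FD and 6.23, 6.24, 6.31, 6.14 and 6.05 with HF-SD. Both high-fat groups of Il10 lay below the low-fat arrays on deposited values, and with all genes tested the safflower change was -0.35 (adjusted p = 0.00474), against -0.13 (adjusted p = 0.308) after quantile normalization. Il18, an inflammasome-processed cytokine, changed by -0.27 (adjusted p = 0.0442 with all genes tested) and by -0.05 after quantile normalization, and its second row changed by 0.16.

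Of the 7 inducible targets and chemokines, 6 were tested, and 0 were higher and 4 lower on deposited values, where 16.9% of all tested genes and 31.3% of the dimmer ones, to which those 4 belong, were lower. None passed after quantile normalization. Ccl5, a chemokine for T cells and monocytes, read 6.73, 6.94, 6.77 and 6.78 with LF-CD, 6.75, 6.79, 6.57 and 6.59 with HF-FD and 6.36, 6.53, 6.48, 6.48 and 6.51 with HF-SD. Its safflower arrays lay below every array of the other diets (change -0.33, SE 0.07, adjusted p = 0.00416), and after quantile normalization the change was -0.12 (adjusted p = 0.288). Its mean of 6.64 makes it the dimmest member that was tested, next to Tlr4 just outside the limit.

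Lcn2, the secreted iron-siderophore binder lipocalin 2, read 7.07, 6.96, 6.83 and 6.92 with LF-CD, 6.98, 6.75, 6.81 and 6.71 with HF-FD and 6.66, 6.70, 6.56, 6.70 and 6.50 with HF-SD. No safflower array reached the lowest low-fat array (change -0.32, SE 0.07, adjusted p = 0.00546), and after quantile normalization the change was -0.12 (adjusted p = 0.236). Nos2, the inducible nitric oxide synthase, read 7.07, 6.85, 6.67 and 6.83 with LF-CD, 6.65, 6.62, 6.73 and 6.61 with HF-FD and 6.58, 6.57, 6.60, 6.56 and 6.50 with HF-SD. It showed the same order of safflower below low-fat (change -0.29, SE 0.07, adjusted p = 0.00682), with -0.09 (adjusted p = 0.396) after quantile normalization, and its second row changed by -0.43 and -0.21.

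Ccl3, a chemokine of myeloid cells, read 7.20, 7.12, 6.72 and 6.87 with LF-CD, 6.67, 6.77, 6.81 and 6.77 with HF-FD and 6.62, 6.80, 6.54, 6.80 and 6.45 with HF-SD. Here the groups overlapped, and the change of -0.34 (SE 0.10, adjusted p = 0.0166) did not pass without LF-CD replicate 1 or 2 (adjusted p up to 0.0588) or after quantile normalization (-0.14, adjusted p = 0.298). Ccl2, the monocyte chemokine MCP-1, was too dim to be tested and read 6.15, 6.10, 6.09 and 6.36 with LF-CD, 6.11, 6.03, 6.12 and 6.19 with HF-FD and 6.21, 5.97, 6.22, 6.01 and 6.14 with HF-SD. Its groups overlapped, with changes of -0.07 and 0.16 in the 2 scalings. The endothelial adhesion molecules Icam1 and Vcam1 changed by -0.09 and 0.29 on deposited values (adjusted p = 0.506 and 0.138) and by -0.08 and 0.25 after quantile normalization.

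Nlrp3, the sensor protein of an inflammasome, read 6.82, 6.79, 6.71 and 6.82 with LF-CD, 6.67, 6.77, 6.78 and 6.64 with HF-FD and 6.57, 6.56, 6.61, 6.59 and 6.54 with HF-SD. The safflower arrays lay below all others and close together (change -0.21, SE 0.05, adjusted p = 0.00791). After quantile normalization the difference was 0.00 (95% interval -0.11 to 0.10), with 0.01 after loess and 0.00 with median centring. Casp1, the protease that inflammasomes activate, was dim (mean 6.44), with changes of 0.10 on deposited and 0.32 on quantile-normalized values (adjusted p = 0.236 and 0.0241 with all genes tested).

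The direction of a member on the deposited scale ran with its signal. Of the 34 tested members, 9 lay above the middle signal of 8.10, and 4 of these were higher and 0 lower. The other 25 lay below it, and 2 of these were higher and 10 lower. All tested genes showed the same order: 37% of the brighter were higher and 2.37% lower, against 8.79% and 31.3% of the dimmer. The 18 members with a mean signal under 7 held 8 of the 10 lower members, and quantile normalization raised the change of each of the 18 by 0.17 to 0.22. For the 9 members at 8.2 or above it lowered the change by 0.04 to 0.20. Tlr3 went against this order, being among the dimmest tested members and higher in both scalings. The part of array spread in the lower cytokine and chemokine signals was measured only by these scalings, and no alternative scaling left more than 1 lower member.

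**Figure D3:**
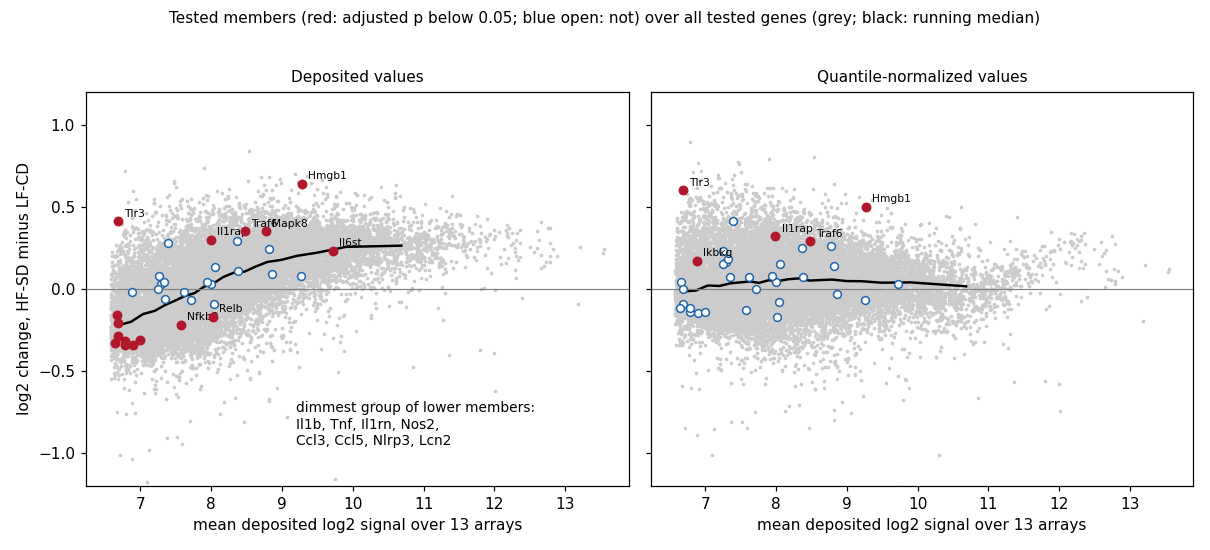
Log2 change in HF-SD minus LF-CD against mean deposited log2 signal for the 34 tested members (coloured points) over all 16033 tested genes (grey), on deposited (left) and quantile-normalized values (right). The black line is the running median of all genes. It climbs with signal on deposited values and is nearly flat after quantile normalization, where Tlr3, Hmgb1, Il1rap, Traf6 and Ikbkg are the members past the threshold.

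Signals of immune cell markers are given beside these results. Of 13 microglial markers on the array, 12 were tested. On deposited values 2 were higher (P2ry12 by 0.25 and P2ry13 by 0.49) and 0 lower, beside 22.9% and 16.9% of all tested genes. P2ry13 also passed after quantile normalization (0.50, adjusted p = 0.01), where 10.1% of all tested genes were higher. The mean of the microglial list was 8.18 to 8.42 with LF-CD, 8.28 to 8.50 with HF-FD and 8.31 to 8.45 with HF-SD, so the groups overlapped. Of 14 macrophage and leukocyte markers, 11 were tested and 5 were lower on deposited values (Cd3e, Cd3d, Cd8a, Cd79a and Mpo). On that scale 16.9% of all tested genes and 31.3% of the dimmer ones, to which those 5 belong, were lower. Only Cd79a also passed after quantile normalization (-0.29, adjusted p = 0.018), where 4.37% of all tested genes were lower. The mean of this list was 6.90 to 7.08, 6.92 to 6.99 and 6.79 to 6.86 in the same order of diets on deposited values, and 6.82 to 6.97, 6.85 to 7.02 and 6.78 to 6.97 after quantile normalization. The blood marker Slc4a1 was lower on deposited values (-0.45, adjusted p = 0.027), 1 of 7 red blood cell genes, and changed by -0.42 after quantile normalization (adjusted p = 0.0869). All 7 red blood cell genes had a negative change in both scalings, with medians of -0.40 and -0.56. Of 10 markers of endothelium and mural cells 2 were higher on deposited values, of 8 of astrocytes 3, and of 12 of neurons 10, beside 22.9% of all tested genes. After quantile normalization 1 endothelial marker, Tek, was higher (0.44 and 0.46 in the 2 scalings, adjusted p = 0.0166 and 0.0366), and 0 astrocyte and 0 neuronal markers were (limma, with 0 of either at an unadjusted p below 0.05). The median neuronal change was 0.34 on deposited values and 0.18 after quantile normalization, where 11 of 12 were positive. For astrocytes it was 0.18 and 0.01. The SD of the neuronal list mean over the LF-CD arrays was 0.15 and 0.50 in the same order, so the later test was less precise. Of 15 hypothalamic markers 2 were lower on deposited values, beside 16.9% of all tested genes. These were Ghrh (-0.51, adjusted p = 0.00379) and Agrp (-0.37, adjusted p = 0.00917). Ghrh was lower after quantile normalization too (-0.50, adjusted p = 0.00946), where 4.37% of all tested genes were. The part of these marker signals in the results for the members was not tested.

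A wider list of 122 pathway genes, of which 120 were on the array and 94 tested, also depended on the scaling with safflower oil. On deposited values 20 were higher and 21 lower, beside 22.9% and 16.9% of all tested genes. After quantile normalization 10 were higher and 3 lower, beside 10.1% and 4.37%. Loess gave 13 higher and 4 lower, and median centring 46 and 1. The median change of the tested genes was -0.01 and 0.03 in the deposited and quantile-normalized values. Higher in both were 9 of the 94 tested genes, beside 7.14% of all tested genes. They were Tab3, Ripk2, Birc2, Rel, Tbk1, Jak2, Map2k6, Smad2 and Adam17. Several of these act around the IkB kinases: Tab3 is a partner of the kinase TAK1, Birc2 a ubiquitin ligase of the TNF receptor complex, Tbk1 a kinase used by Tlr3, and Rel an NF-kB subunit. Of the others, Ripk2 is the kinase of NOD receptors, Jak2 a kinase of cytokine receptors, Map2k6 an activator of p38, Smad2 a mediator of TGF-beta and Adam17 the protease that sheds TNF. Rel changed by 0.14 on deposited values (adjusted p = 0.0463) and by 0.35 after quantile normalization (adjusted p = 0.00953).

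Among the higher genes with the smallest p on deposited values was the stress kinase gene Mapk9 (JNK2, 0.37, adjusted p = 0.00379). Map2k4, which encodes a kinase that activates JNK, was another (0.37, adjusted p = 0.00379). After quantile normalization they changed by 0.14 and 0.18 and did not pass. Map2k6 read 7.71, 7.77, 7.74 and 7.67 with LF-CD, 7.98, 7.85, 7.67 and 7.80 with HF-FD and 8.05, 7.95, 8.06, 7.90 and 8.11 with HF-SD. It was higher in both scalings (0.29, adjusted p = 0.00611, and 0.34, adjusted p = 0.0125). The transcription factor Atf2 changed by 0.29 and 0.05, and Nek7, a partner of Nlrp3, by 0.31 and 0.14, with -0.02 when its 3 rows were averaged.

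Lower in both scalings were 3 of the 94 tested genes, Lta, Pycard and Ager, beside 3.84% of all tested genes. Pycard, the ASC adaptor that links Nlrp3 to Casp1, read 7.92, 7.85, 7.88 and 7.87 with LF-CD, 7.65, 7.77, 7.71 and 7.77 with HF-FD and 7.53, 7.66, 7.52, 7.61 and 7.68 with HF-SD. Both high-fat groups lay below LF-CD without overlap, and the safflower change was -0.28 (SE 0.05, adjusted p = 0.00403) on deposited and -0.21 (SE 0.05, adjusted p = 0.0196) on quantile-normalized values. It was -0.07 (adjusted p = 0.402) with median centring, and the quantile call failed without LF-CD replicate 1 or HF-SD replicate 1 or 3 (adjusted p up to 0.0538). Lta, the cytokine lymphotoxin alpha, read 7.36, 7.39, 7.18 and 7.29 with LF-CD, 6.93, 7.01, 7.09 and 7.03 with HF-FD and 6.87, 7.05, 6.83, 6.96 and 6.66 with HF-SD. It changed by -0.43 (SE 0.07, adjusted p = 0.00379) and -0.27 (SE 0.06, adjusted p = 0.0184), the latter failing without LF-CD replicate 1 or 2 (adjusted p up to 0.0537). Ager, the RAGE receptor that binds Hmgb1, changed by -0.28 (adjusted p = 0.00591) and -0.19 (adjusted p = 0.032). Selp (the adhesion molecule P-selectin), Tlr5 (the flagellin receptor) and Ikbke (an IkB kinase relative) were lower on deposited values (-0.31, -0.37 and -0.25) and did not pass after quantile normalization (-0.12, -0.16 and -0.11).

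With the flaxseed diet, no member passed against LF-CD, as no tested gene did (0% of the 16033 tested genes in both scalings, smallest adjusted p = 0.205 on deposited values, with 3226 genes at an unadjusted p below 0.05 in limma and 2029 after quantile normalization). Among the tested members, 5 had an unadjusted p below 0.05 on deposited values and 3 after quantile normalization, and the median change was 0.01 and 0.04. Without the filter on dim genes, 1 of all 22093 genes passed, and it was no member. Hmgb1 changed by 0.35 (95% interval 0.06 to 0.65, adjusted p = 0.216), and by 0.28 after quantile normalization. Il1rn changed by -0.17 (adjusted p = 0.205) and -0.07, and Nos2 by -0.20 (adjusted p = 0.205) and -0.11, in the same order of scalings. For Il1b the flaxseed change was -0.05 and 0.04, and for Il1rap it was 0.04 and 0.05, with overlapping groups. The comparison has a median 95% half-width of 0.174 on the log2 scale, before adjustment over all tested genes. Larger changes than this also failed the adjusted test, such as the 0.35 of Hmgb1. The absence of calls therefore does not show that flaxseed oil left these genes alone.

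The high-fat diets were also compared with each other, which bears on the kind of fat at equal energy share. Again no tested gene passed on deposited or quantile-normalized values (0%, smallest adjusted p = 0.246 on deposited values, with 2480 genes at an unadjusted p below 0.05 in limma and 1406 after quantile normalization). Among the members, 8 had an unadjusted p below 0.05 on deposited values and 5 after quantile normalization. Il1b changed by -0.29 (95% interval -0.43 to -0.15, unadjusted p = 0.000567, adjusted p = 0.246) from HF-FD to HF-SD, with all 5 safflower arrays below all 4 flaxseed arrays, and by -0.19 after quantile normalization with overlapping arrays (adjusted p = 0.487). Il1rap changed by 0.27 (0.11 to 0.42, adjusted p = 0.246) with deposited values and by 0.27 (adjusted p = 0.487) after quantile normalization. Tlr3 changed by 0.25 and 0.34, Traf6 by 0.18 and 0.16, and Hmgb1 by 0.29 and 0.22, all short of the threshold. That members passed with safflower oil and not with flaxseed oil is therefore not a shown difference between the oils. Both comparisons with LF-CD share its 4 arrays, so their values stand side by side without a measure of likeness.

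**Figure D4:**
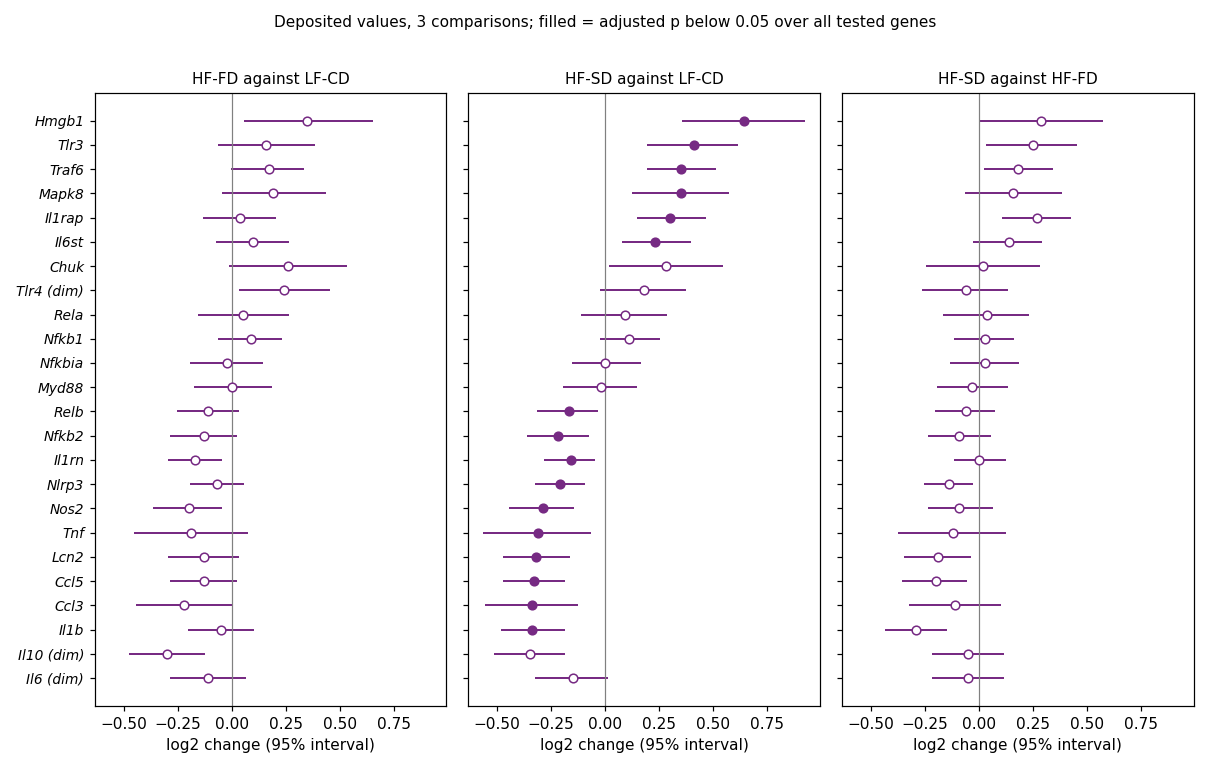
Log2 change with 95% confidence interval for selected members in HF-FD minus LF-CD, HF-SD minus LF-CD and HF-SD minus HF-FD, on deposited values. Filled points have an adjusted p below 0.05 over all tested genes, and "dim" marks members below the limit for testing. Filled points occur only in the middle panel, HF-SD minus LF-CD.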

How the data were processed

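Hypothalamic RNA of 13 samples was hybridised to Affymetrix arrays, 1 array per sample. The deposited values are log2 signals of 70580 rows. Per the submitters' processing notes they were made with RMA, and Affymetrix Expression Console and Transcriptome Analysis Console are named as software. Genome build and batches are not given in the sources used here. Of these rows 23446 carry exactly 1 gene symbol in the platform annotation, and 22077 gene IDs were matched to RefSeq. Where a gene had several rows, the one with the highest mean was used, which left 22093 genes. The 16033 genes whose mean reached 6.58, the median over all row means, were tested. Group means of the 3 diets were fitted together with limma 3.58.1 in R 4.3.3 (10 residual degrees of freedom), and two-sided p-values were adjusted by Benjamini-Hochberg over all tested genes (threshold 0.05). Adjusted p-values of dim genes come from the same fit without the filter. The number of arrays limits the precision, with a median 95% half-width of 0.165 for HF-SD against LF-CD. The fit was also run on simulated arrays with known changes. These had independent noise and no difference in array spread between diets, so that run does not bear on the scaling. Correlations between arrays ran from 0.9491 to 0.9951, and 0 pairs were identical.

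The members and gene lists were chosen with earlier results of these data known. Per-array values are given for 26 members: those past the threshold in any comparison under either scaling, and Il1b, Il6, Tnf, Il10, Ccl2, Nfkbia, Rela, Nfkb1, Tlr4, Myd88 and Ikbkb. Of the wider list, the 5 higher and 5 lower genes with the smallest p are named by rule. The 12 past the threshold in both scalings (9 higher, 3 lower) are named as well, a choice made after their values were seen. Alternatives were quantile, cyclic loess and median scaling, no filter, the mean of a gene's rows, a prior variance trend, a replicate block and leaving out each array. Leaving out arrays after quantile normalization was added after the data were seen.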

Additional observations from a re-analysis of the deposited data

Results flagged for a closer look

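In 108 groups of 4 or 5 arrays (26 members and 10 further pathway genes in 3 diets), 4 single arrays stood apart from the rest of their group by Dixon's test, which chance does in about 5% of groups. Mapk8 read 8.29 on LF-CD replicate 1, against 8.67 to 8.68 on the other low-fat arrays. The same gene read 8.56 on HF-FD replicate 1, against 8.82 to 8.88 on the other flaxseed arrays. Mapk9 read 10.42 on HF-FD replicate 4, where the other flaxseed arrays lay between 10.21 and 10.24, and 10.46 on HF-SD replicate 4, where the other safflower arrays lay between 10.53 and 10.56.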

How the results depend on the processing

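The counts for safflower against low-fat depended on the scaling, and the cause was not tested. The 10 lower members became 0 with quantile, 1 with cyclic loess and 0 with median-centred values. The 6 higher members became 18 with median centring. Over all tested genes, calls in either direction went from 6377 to 2326, 3099 and 9620 with quantile, loess and median-centred values. Of the wider list, the 20 higher genes became 10, 13 and 46 in the same order of scalings, the 21 lower became 3, 4 and 1, and without the filter on dim genes, which tests more genes, 32 were lower. Without that filter 10003 of the 22093 genes passed in either direction. Leaving out 1 array gave 5 to 10 lower members (5 without LF-CD replicate 1, 6 without LF-CD replicate 2). It gave 10 to 26 lower genes of the wider list (10 and 11 without the same arrays, 12 without HF-SD replicate 5). Over all tested genes, 6377 passed in either direction with every array kept. Without LF-CD replicate 1, LF-CD replicate 2 or HF-SD replicate 5 there were 4538, 5149 and 4512. With quantile-normalized values, leaving out 1 array gave 3 to 6 higher and 0 to 1 lower members. Of the wider list it gave 3 to 15 higher and 0 to 6 lower genes. Over all tested genes the same fits gave 882 to 3103 calls in either direction, against 2326 with every array kept. In these the lowest counts of higher members (3) came without LF-CD replicate 1 or 2 or HF-SD replicate 1, 3 or 5. Tlr3, Il1rap and Traf6 passed in all 13 such fits under both scalings. Among genes called in some scaling, signs turned for Il1rn (0.04 with quantile, 0.06 with loess, 0.05 with median centring), Relb (0.04 with median centring), Ikbkg (0.17, 0.18 and 0.19 in that order), Nlrp3 (0.01 with loess, 0.00 with median centring) and Nek7 (-0.02 with rows averaged). Members called in neither the deposited nor the quantile-normalized values turned as well, among them Rela (0.09 to -0.03), Irak1 (0.08 to -0.07), Myd88 (-0.02 to 0.07) and Il6r (-0.06 to 0.07) from deposited to quantile values.

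Whether array numbers pair the samples was not settled. Deviations of same-numbered arrays correlated from -0.26 to 0.43, all positive for numbers 1 and 4, mixed for number 2 and negative for number 3. With the replicate block, which leaves out HF-SD replicate 5, 7 members were higher and 7 lower. Of the wider list, 15 genes were higher and 14 lower. Over all tested genes, 4652 passed in either direction, against 6377 with every array and no block. Tnf, Il1rn and Relb no longer passed. The counts of 0 for the other comparisons stayed 0 for both lists under every alternative. Without HF-SD replicate 4, 90 genes of the array, none of them listed, passed between the high-fat diets.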
